A study of Mus musculus with 10 samples.

Results

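The genes described here are 36 genes of fatty acid oxidation and of its PPAR regulators, measured by RNA-seq in hearts of male mice after prenatal exposure to anti-Müllerian hormone (AMH). They were taken by symbol from a list of names, and all 36 were found once each among the 55335 Ensembl genes of the deposited table through the GENCODE vM21 annotation. The list holds 7 regulators, 6 genes of fatty acid activation and the carnitine shuttle, 7 acyl-CoA dehydrogenases and electron transfer proteins, 5 later enzymes of the cycle, 4 auxiliary enzymes, 3 thioesterases, 2 enzymes of malonyl-CoA turnover and 2 uncoupling proteins. All 36 had a mean of at least 1 FPKM (fragments per kilobase of transcript, scaled to the mapped fragments of the library) and were tested.

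The control group was 5 heart samples from wild-type male offspring whose dams had received PBS in pregnancy (the labels call it prenatal vehicle), and the PAMH group was 5 heart samples from wild-type male offspring whose dams had received AMH, an exposure that the series treats as modelling polycystic ovary syndrome in mice. Dose, day of treatment, strain and age at collection are not in the labels. The labels tie no sample to an animal, litter or dam, so whether each came from another heart is not known. The p-values therefore rest on sample-to-sample spread alone, which may be partly technical or shared by littermates. In bulk heart RNA, fewer cells of a type and less RNA per cell cannot be told apart.

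The heart takes most of its energy from fatty acids. Acyl-CoA synthetases activate them, the carnitine shuttle carries them into mitochondria, and the beta-oxidation cycle shortens them while passing electrons to the respiratory chain through the electron transfer flavoprotein. The genes of this route are controlled by the nuclear receptors PPAR alpha, delta and gamma, which bind DNA with RXR, and by the estrogen-related receptor alpha (gene Esrra), with the coactivators PGC-1 alpha and PGC-1 beta (genes Ppargc1a and Ppargc1b).

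The 10 libraries differed in depth. Read counts were not recovered, but in genes with a single annotated transcript the product of FPKM and length repeats at a smallest step, and the inverse of that step gives relative depth. Set to 100% in the deepest library, control replicate 1, depth was 70.8% to 100% in controls and 59.3% to 75.5% in PAMH samples. PAMH replicate 4, where only 17 genes lay at the step against 90 to 261 elsewhere, also had the fewest genes above 0 (16113). The 10 cardiomyocyte markers, none called, were present in every sample and summed to 11731 to 14659 FPKM in control and 10331 to 16710 FPKM in PAMH samples. Of 15 adipocyte markers 11 averaged under 1 FPKM, and Lep, Adrb3 and Elovl3 were listed at 0 in every sample. The 15 summed to 61.4 to 84.2 FPKM in controls and 58.2 to 70.7 FPKM in PAMH samples. Of the 4 tested, Cidea was called higher, and it is also in the list of PPAR targets. The others, Fabp4, Lipe and Slc36a2, had negative log2 fold changes (-0.44, -0.27 and -0.13) and were not called. Without Cidea the other 14 summed to 47.0 to 71.0 FPKM in controls and 37.7 to 50.1 FPKM in PAMH samples. Smooth muscle and pericyte markers (9 genes, 1 called, which was Acta2) summed to 89.4 to 129.6 FPKM in controls and 140.4 to 186 FPKM in PAMH samples. Acta2 alone carried that difference, since the other 8 summed to 63.9 to 92.2 and 59.5 to 90.3 FPKM. Macrophage and leukocyte markers (10 genes, 1 called, which was Cd68) summed to 98.0 to 113 and 111 to 139 FPKM, and the 9 without Cd68 to 94.7 to 109 and 106 to 135 FPKM. Endothelial markers (10 genes, 1 called lower, which was Cldn5) summed to 97.3 to 123 and 87.1 to 106 FPKM. No tested marker of fibroblasts, skeletal muscle, atrial cardiomyocytes or erythroid cells was called. Only 1 of 6 atrial markers (Nppa, log2 fold change 0.81) and 2 of 12 skeletal muscle markers were tested. The 7 erythroid markers summed to 112 to 438 FPKM in controls and 97.4 to 863 FPKM in PAMH samples, with the 863 FPKM in PAMH replicate 4. Besides the 3 adipocyte genes, the skeletal muscle marker Myf6 was listed at 0 in every sample. The part of depth or cell makeup in the results below was not tested.

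Of the 36 genes 2 were higher in PAMH hearts, Esrra and Eci2, 1 was lower, Ucp3, and 33 did not pass the test (limma, Benjamini-Hochberg adjusted p under 0.05 over the 9439 genes tested). Over all tested genes 4.95% were called higher and 1.24% lower, 6.19% in all, so the 3 calls are near the background share. The median log2 fold change of the 36 genes was 0.07 and that of all tested genes was also 0.07. Positive changes numbered 25 among the 36 (69.4%), beside 67.3% of all tested genes. That direction rests on the scaling: 14 of the 36 were positive under median ratio scaling, 12 with quantile normalization and 12 when mitochondrial genes were left out and the rest rescaled. Of all calls 80.0% were higher in the deposited FPKM, against 50.7%, 48.8% and 51.7% in those settings. Mitochondrial genes here are those of the mitochondrial genome and of a short stretch of chromosome 1, not the nuclear genes of mitochondrial enzymes. The mitochondrial genome held 55.3% to 56.8% of FPKM in controls and 51.5% to 56.6% in PAMH samples. At an unadjusted p under 0.05 there were 10 of the 36, 7 higher and 3 lower, where 24% of all tested genes lay under that value. In the deposited FPKM, values of the groups did not overlap for 5 of the genes, 4 higher (Esrra, Hadhb, Eci2, Decr1) and 1 lower (Ucp3). The same held for 8.44% of all tested genes (6.74% higher and 1.71% lower). Overlap was not counted after other scalings, where small gaps such as those of Hadhb and Decr1 can close. The median ratio factors, by which FPKM is divided, were 0.937 to 0.991 in controls and 0.973 to 1.09 in PAMH samples. Changes throughout are PAMH minus control on the scale of log2(FPKM + 1), which understates those of genes with low FPKM.

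**Figure D1:**
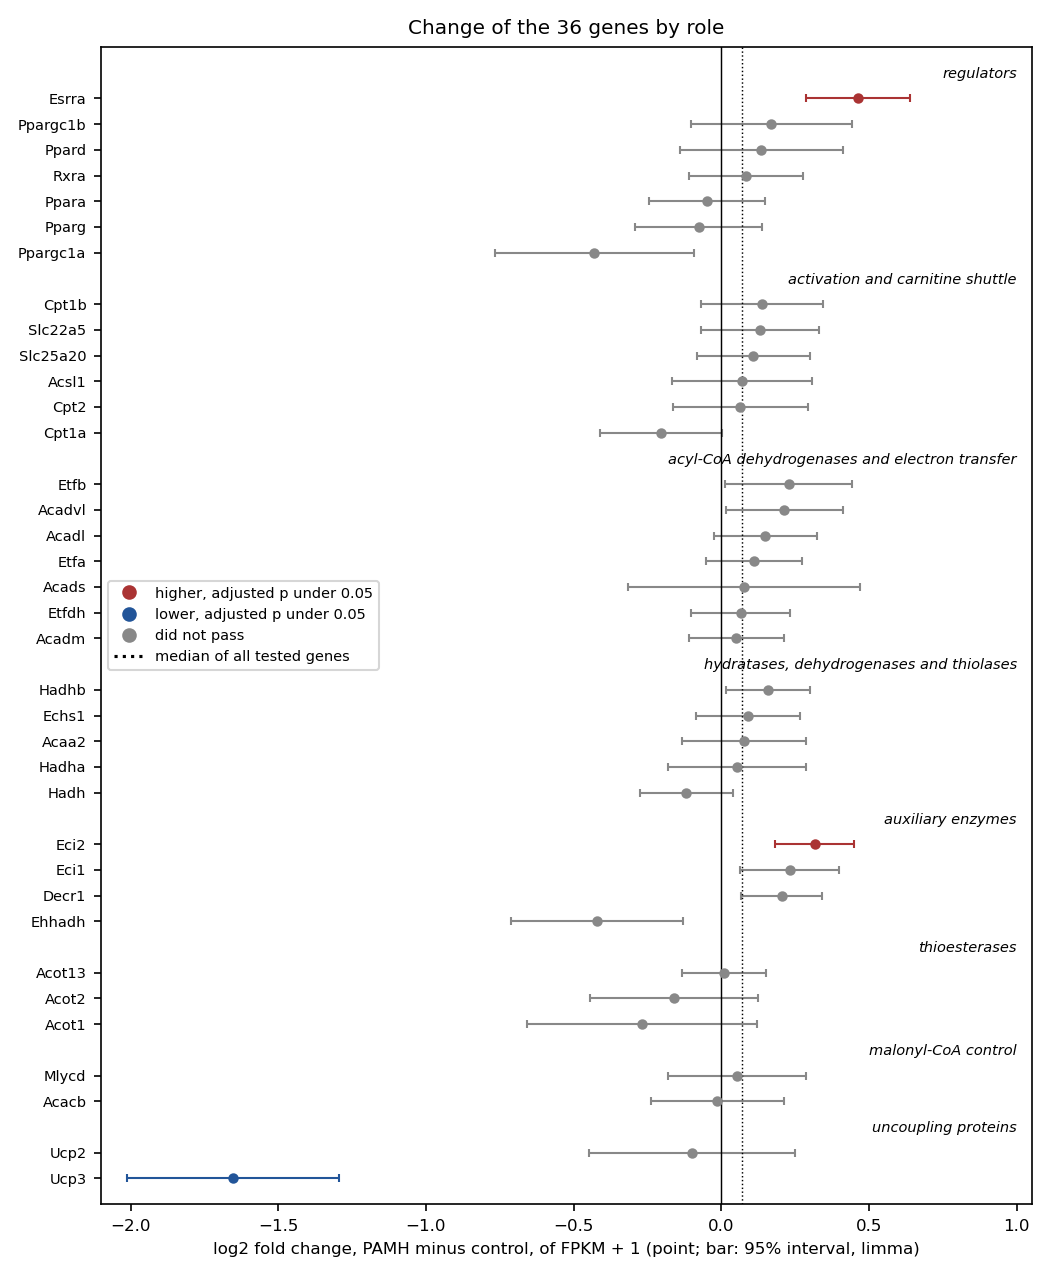
Change of each of the 36 genes, ordered by role. Points are log2 fold changes (PAMH minus control, of FPKM + 1), bars their 95% intervals from limma (n = 5 per group), the solid line marks no change and the dotted line the median of all tested genes, 0.07; red and blue points passed the test. Ucp3 lies at -1.65, far below the others, and Esrra at 0.46 and Eci2 at 0.32 are the 2 red points.

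The largest change was that of Ucp3, which encodes a carrier of the inner mitochondrial membrane found mainly in muscle and heart and a known target of PPARs (chromosome 7, 100472990 to 100486432, plus strand, GRCm38). Ucp3 was at 9.67, 16.8, 9.02, 17.1 and 11.5 FPKM in control replicates 1 to 5 and at 3.54, 3.22, 2.69, 3.90 and 3.04 FPKM in PAMH replicates 1 to 5. Every PAMH value lay below every control value, and the controls themselves spread widely, with replicates 2 and 4 well above 1 and 3. The mean was 12.8 ± 3.86 FPKM (SD, n = 5) in controls and 3.28 ± 0.463 FPKM (n = 5) after AMH, 25.6% of control. The log2 fold change was -1.65 (SE 0.16, 95% interval -2.01 to -1.29, limma adjusted p = 0.000379).

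Ucp2, a related carrier made in many cell types, is the neighbour of Ucp3 on the same strand (chromosome 7, 100493337 to 100502020). It was at 4.61, 7.26, 5.46, 6.10 and 5.20 FPKM in control replicates 1 to 5 and at 6.02, 5.04, 3.29, 7.47 and 5.07 FPKM in PAMH replicates 1 to 5. The groups overlapped almost wholly, and Ucp2 did not pass (log2 fold change -0.10, 95% interval -0.45 to 0.25, limma adjusted p = 0.745). The difference between both genes was tested as a ratio within each sample, which does not depend on how samples are scaled. The 5 ratios tested in this way were chosen with earlier results of these data known. The FPKM ratio of Ucp3 to Ucp2 was 2.22 ± 0.413 in the 5 controls and 0.633 ± 0.112 (SD) in the 5 PAMH samples (2-sided exact permutation p = 0.00794, the smallest that 5 against 5 samples allow, adjusted p = 0.0132 over 5 ratios). Ucp3 thus exceeded Ucp2 in 5 of 5 control samples and was below it in 5 of 5 PAMH samples.

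Esrra, the nuclear receptor that acts with the PGC-1 coactivators on oxidative genes (chromosome 19, 6910977 to 6921813, minus strand), was the regulator that passed. Its values were 18.2, 21.4, 19.8, 20.7 and 20.6 FPKM in control replicates 1 to 5 and 28.0, 27.8, 25.1, 33.3 and 27.0 FPKM in PAMH replicates 1 to 5. All PAMH samples were above all controls, with PAMH replicate 4 the highest and 3 the lowest of their group. Esrra rose from 20.1 ± 1.24 to 28.2 ± 3.02 FPKM (mean ± SD of 5 samples; log2 fold change 0.46 with SE 0.08, 95% interval 0.29 to 0.64, limma adjusted p = 0.00808). Exons of Esrra share 73 bases with Trmt112 on the opposite strand, which averaged 6.24 FPKM, and the strand setting of the study is not given.

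Eci2 encodes an enoyl-CoA isomerase that prepares unsaturated fatty acids for the cycle in mitochondria and peroxisomes (chromosome 13, 34977748 to 35027096, minus strand). It was at 14.6, 14.2, 14.2, 14.1 and 13.8 FPKM in control replicates 1 to 5 and at 16.9, 17.6, 17.4, 19.6 and 17.9 FPKM in PAMH replicates 1 to 5. The controls were nearly equal and the groups were clearly apart, although the step between them was small. Eci2 rose from 14.2 ± 0.284 to 17.9 ± 1.04 FPKM (mean ± SD of 5 samples; log2 fold change 0.32 with SE 0.06, 95% interval 0.18 to 0.45, limma adjusted p = 0.0138). The call ended under median ratio scaling (log2 fold change 0.22, adjusted p = 0.0601), with quantile normalization (0.19, adjusted p = 0.0799), and with the mitochondrial genes left out (0.21, adjusted p = 0.0618).

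The windows around the starts of the 3 called genes and of Ucp2 are shown because Ucp3 and Esrra moved in opposite directions and Ucp3 and Ucp2 lie side by side. They come from RefSeq (build GRCm38.p6), run 5′ to 3′ on the strand of the gene from 250 bases before the start to 50 after it, and carry capitals where the letters AGGTCA, the core that nuclear receptors of this class bind, were found on either strand. The windows are chr7:100472741-100473040 (plus strand) for Ucp3, chr7:100493108-100493407 (plus) for Ucp2, chr19:6921759-6922058 (minus) for Esrra and chr13:34994095-34994394 (minus) for Eci2. The Eci2 window belongs to a RefSeq start at 34994144, which lies 32952 bases inside the GENCODE gene from its outermost 5′ end, and the other 3 starts lie within 21 bases of theirs.
Ucp3: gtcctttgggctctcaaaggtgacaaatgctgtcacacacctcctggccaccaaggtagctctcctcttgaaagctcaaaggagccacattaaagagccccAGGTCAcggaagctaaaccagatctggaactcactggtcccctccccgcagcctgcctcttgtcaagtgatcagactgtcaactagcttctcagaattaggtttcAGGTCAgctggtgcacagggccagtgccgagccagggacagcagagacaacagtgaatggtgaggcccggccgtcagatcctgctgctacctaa
Ucp2: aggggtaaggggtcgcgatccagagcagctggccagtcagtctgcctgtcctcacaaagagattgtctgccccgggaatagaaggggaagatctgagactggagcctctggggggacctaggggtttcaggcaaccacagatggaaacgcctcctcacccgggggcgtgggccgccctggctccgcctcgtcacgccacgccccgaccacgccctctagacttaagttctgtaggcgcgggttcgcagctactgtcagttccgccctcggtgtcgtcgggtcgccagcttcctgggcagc
Esrra: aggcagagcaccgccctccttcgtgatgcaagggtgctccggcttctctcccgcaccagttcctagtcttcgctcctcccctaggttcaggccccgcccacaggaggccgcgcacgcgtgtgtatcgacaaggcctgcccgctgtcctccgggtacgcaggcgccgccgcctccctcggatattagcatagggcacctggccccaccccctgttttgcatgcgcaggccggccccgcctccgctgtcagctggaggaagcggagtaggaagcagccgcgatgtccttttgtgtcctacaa
Eci2: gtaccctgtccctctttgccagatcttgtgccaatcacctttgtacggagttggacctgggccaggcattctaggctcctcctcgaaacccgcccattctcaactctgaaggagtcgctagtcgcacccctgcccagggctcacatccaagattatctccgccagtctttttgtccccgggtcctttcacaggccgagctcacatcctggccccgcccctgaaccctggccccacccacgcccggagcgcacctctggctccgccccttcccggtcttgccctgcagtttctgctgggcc

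The Ucp3 window holds AGGTCA at 2 places, from base -149 to -144 and from -44 to -39 counted from the start, both on the plus strand. The windows of Ucp2, Esrra, Eci2 and Eci1 hold none. Of 31 of the 36 genes with an entry in the table, 8 had at least 1 AGGTCA in a window (Acacb, Acadm, Acadvl, Cpt1a, Echs1, Pparg, Rxra and Ucp3), and 18.1% of all 27025 genes did. The direct repeat AGGTCANAGGTCA, the element of PPAR and RXR, was in no window of these 31 genes and in 0.0481% of all genes, and TNAAGGTCA, the element of estrogen-related receptors, which contains AGGTCA, was in none of the 31 and in 1.43% of all genes. These are matches of letters within 300 bases and say nothing of binding elsewhere.

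Among the regulators the PPAR genes themselves did not pass. Ppara, the main PPAR of cardiac fatty acid oxidation, was at 7.67, 7.66, 8.44, 7.31 and 7.62 FPKM in control replicates 1 to 5 and at 7.22, 8.95, 7.91, 7.45 and 5.98 FPKM in PAMH replicates 1 to 5. The PAMH samples lay on both sides of the controls (log2 fold change -0.05, 95% interval -0.24 to 0.15, limma adjusted p = 0.781). Pparg, best known from fat cells, was at 3.18, 2.74, 2.81, 3.46 and 3.43 FPKM in controls and 3.42, 2.50, 2.44, 2.72 and 3.55 FPKM in PAMH samples, replicates 1 to 5 in turn. It too overlapped between groups (log2 fold change -0.08, 95% interval -0.29 to 0.14, adjusted p = 0.674). Ppard, the widely made PPAR, had 1.38 ± 0.0342 and 1.67 ± 0.651 FPKM, and PAMH replicate 4 alone, at 2.81 FPKM, stood above the rest. The partner receptor Rxra had 7.57 ± 0.536 and 8.11 ± 1.02 FPKM (SD, n = 5 each).

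The coactivator genes lay on opposite sides of zero. Ppargc1a was at 18.1, 14.7, 13.8, 17.1 and 25.3 FPKM in control replicates 1 to 5 and at 14.8, 15.0, 13.4, 10.8 and 10.1 FPKM in PAMH replicates 1 to 5, so that 3 PAMH samples lay below all controls and control replicate 5 stood high. It did not pass (log2 fold change -0.43, 95% interval -0.77 to -0.09, limma adjusted p = 0.115). Ppargc1b had 1.87 ± 0.109 and 2.28 ± 0.669 FPKM (log2 fold change 0.17, 95% interval -0.10 to 0.44, adjusted p = 0.440). Within each sample, however, the FPKM ratio of Ppargc1a to Ppargc1b was lower in PAMH hearts, at 9.52 ± 2.26 in the controls and 5.85 ± 1.13 after AMH (mean ± SD of 5 samples; permutation test, exact p = 0.00794, adjusted p = 0.0132 over 5 ratios). The groups were parted by a narrow gap, since the lowest control ratio was 7.30 and the highest PAMH ratio 7.26. Neither gene had a change called by itself, and the ratio does not tell which of both moved.

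**Figure D2:**
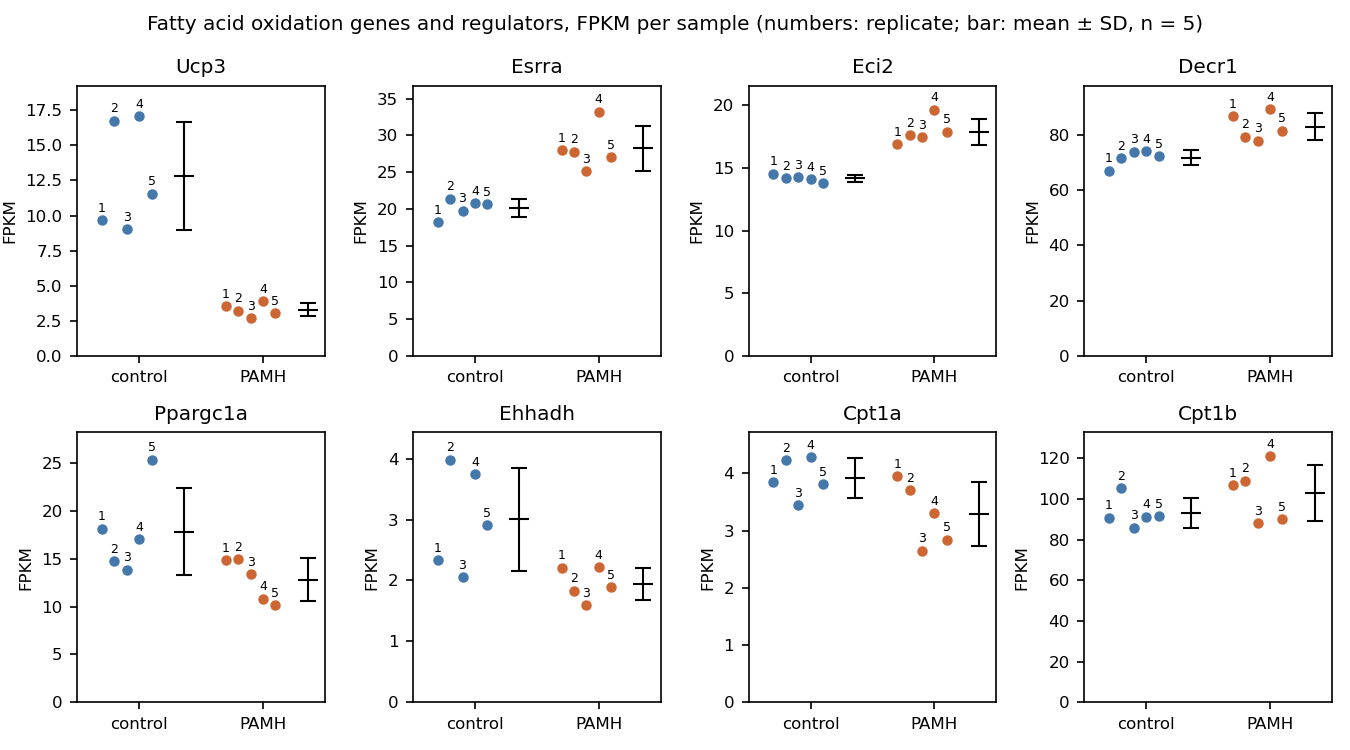
FPKM of 8 of the genes in each sample. The vertical axes show FPKM from 0, numbered points are the 5 control (blue) and 5 PAMH (orange) replicates, and bars to their right are mean ± SD. PAMH points lie below all controls for Ucp3 and above all controls for Esrra, Eci2 and Decr1, and overlap them for Ppargc1a, Ehhadh, Cpt1a and Cpt1b.

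No gene of fatty acid activation or of the carnitine shuttle passed, and 5 of the 6 had positive changes, of which Acsl1 and Cpt2 turned negative under median ratio scaling, and these and Slc25a20 with quantile normalization or without mitochondrial genes. Cpt1b, the muscle form of the enzyme that commits long-chain fatty acids to mitochondria, was at 90.9, 105, 86.0, 91.4 and 91.6 FPKM in control replicates 1 to 5 and at 107, 109, 88.1, 121 and 90.0 FPKM in PAMH replicates 1 to 5. PAMH replicates 1, 2 and 4 were above all controls while 3 and 5 lay among them (log2 fold change 0.14, 95% interval -0.07 to 0.34, limma adjusted p = 0.400). Transcripts of Cpt1b share 93.0% of their 50-base words with the read-through gene Gm44502 (0.589 FPKM). How reads were divided between them is not given, so the part of the Cpt1b reads affected is not known. Cpt1a, the form of liver and of the fetal heart, was at 3.85, 4.23, 3.44, 4.28 and 3.81 FPKM in controls and at 3.95, 3.71, 2.65, 3.30 and 2.84 FPKM in PAMH samples (replicates 1 to 5; log2 fold change -0.20, 95% interval -0.41 to 0.00, adjusted p = 0.215). The ratio of Cpt1a to Cpt1b was lower in PAMH hearts, at 0.0422 ± 0.00280 in the controls and 0.0320 ± 0.00369 after AMH, with no overlap (mean ± SD of 5 samples; permutation test, exact p = 0.00794, adjusted p = 0.0132 over 5 ratios). Neither Cpt1a nor Cpt1b was called by itself, and the ratio, also chosen with earlier results known, does not tell which of both moved. The part of cell makeup in it was not tested. On this per-length scale Cpt1b was the more abundant form by far in every sample.

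The other 4 genes of entry had intervals that spanned zero. Acsl1, the main acyl-CoA synthetase of heart, had 45.6 ± 3.92 and 48.3 ± 8.51 FPKM, and Cpt2, which returns the fatty acid to CoA inside the mitochondrion, had 46.8 ± 4.21 and 49.3 ± 7.42 FPKM. The carnitine-acylcarnitine carrier Slc25a20 had 28.0 ± 1.53 and 30.4 ± 3.84 FPKM. The carnitine importer Slc22a5 had 5.78 ± 0.669 and 6.43 ± 0.709 FPKM (SD, n = 5 each). Their log2 fold changes lay between 0.06 (Cpt2) and 0.13 (Slc22a5), with adjusted p from 0.407 to 0.750 in limma. Slc22a5 shares 27.0% of its 50-base words with Slc22a21, which averaged 0.13 FPKM.

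All 7 acyl-CoA dehydrogenase and electron transfer genes had positive changes in the deposited FPKM, and none passed; Acadm, Acads and Etfdh turned negative under median ratio scaling, and these and Etfa with quantile normalization or without mitochondrial genes. Acadvl, which starts the oxidation of very long chains, was at 183, 199, 181, 194 and 186 FPKM in control replicates 1 to 5 and at 233, 225, 178, 259.7 and 207 FPKM in PAMH replicates 1 to 5. PAMH replicate 3 was the lowest of all 10 samples and the other 4 PAMH samples were above all controls (log2 fold change 0.21, 95% interval 0.01 to 0.41, limma adjusted p = 0.180). Without PAMH replicate 3 Acadvl passed (log2 fold change 0.29, adjusted p = 0.0263). It passed in 2 of the 21 alternatives, both of which left out that sample. Across the alternatives its log2 fold change went down to 0.10 and its limma adjusted p up to 0.412. Etfb, a subunit of the electron transfer flavoprotein, was at 255, 253, 307, 254 and 258 FPKM in control replicates 1 to 5 and at 285, 313, 279, 396 and 289 FPKM in PAMH replicates 1 to 5. Control replicate 3 reached into the PAMH range, and Etfb did not pass (log2 fold change 0.23, 95% interval 0.01 to 0.44, adjusted p = 0.188). Etfb shares 67.3% of its 50-base words with the overlapping gene Gm45233 (0.0981 FPKM).

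Acadm, the medium-chain enzyme, was at 135, 139.8, 142, 142 and 134 FPKM in control replicates 1 to 5 and at 164, 151, 125, 140.3 and 139 FPKM in PAMH replicates 1 to 5. The PAMH samples spread to both sides of the narrow range of the controls (log2 fold change 0.05, 95% interval -0.11 to 0.21, limma adjusted p = 0.718). The long-chain enzyme Acadl had 246 ± 14.2 and 274 ± 28.9 FPKM and the short-chain enzyme Acads 49.0 ± 10.6 and 52.5 ± 15.8 FPKM. Etfa, the partner subunit of Etfb, had 144 ± 8.79 and 156 ± 13.7 FPKM. Etfdh, which hands the electrons to ubiquinone, had 47.9 ± 1.42 and 50.4 ± 5.22 FPKM (SD, n = 5 each).

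Among the 5 later enzymes of the cycle no change passed. Hadhb, the thiolase subunit of the trifunctional protein, was at 106, 102, 105, 114 and 110.0 FPKM in control replicates 1 to 5 and at 134, 119.6, 116, 114 and 116 FPKM in PAMH replicates 1 to 5. The groups did not overlap, but the lowest PAMH and the highest control value, 114 FPKM each when rounded, nearly met (log2 fold change 0.16, 95% interval 0.02 to 0.30, limma adjusted p = 0.161). Across the 21 alternatives the log2 fold change of Hadhb went down to 0.04 and its limma adjusted p up to 0.829. Hadhb has a related locus, Gm13910, at 101 FPKM, which shares 7.54% of its 50-base words with Hadhb, and how reads were divided between them is not given. Hadha, the partner subunit on the opposite strand beside Hadhb, had 95.03 ± 10.4 and 99.0 ± 14.5 FPKM. Hadh, the dehydrogenase for shorter chains, was the member of this group with a negative change, at 92.0 ± 3.87 and 84.9 ± 7.36 FPKM (log2 fold change -0.12, 95% interval -0.28 to 0.04, adjusted p = 0.340). It was called lower with quantile normalization (log2 fold change -0.23, adjusted p = 0.0390) and with the mitochondrial genes left out (-0.23, adjusted p = 0.0291). The hydratase Echs1 had 25.1 ± 1.19 and 26.9 ± 2.91 FPKM, and the thiolase Acaa2, the most abundant of the 36 genes, 373 ± 24.3 and 396 ± 59.6 FPKM (SD, n = 5 each).

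The auxiliary enzymes were the group in which each of the 4 genes had an unadjusted p under 0.05 in limma, beside 24% of all tested genes. Of these 4, 3 were higher and Ehhadh was lower, and Eci2 was the 1 that passed over all genes. Eci1, the mitochondrial isomerase related to Eci2, was at 75.7, 78.3, 82.8, 70.6 and 75.2 FPKM in control replicates 1 to 5 and at 96.2, 80.0, 82.4, 99.1 and 93.2 FPKM in PAMH replicates 1 to 5. PAMH replicates 2 and 3 fell within the control range (log2 fold change 0.23, 95% interval 0.06 to 0.40, limma adjusted p = 0.0932). Decr1, the dienoyl-CoA reductase that acts with the isomerases on polyunsaturated chains, was at 67.1, 71.6, 73.9, 74.1 and 72.3 FPKM in controls and 86.7, 79.4, 77.9, 89.4 and 81.5 FPKM in PAMH samples, replicates 1 to 5. All PAMH values were above all control values, yet Decr1 did not pass (log2 fold change 0.20, 95% interval 0.07 to 0.34, adjusted p = 0.0754). Without PAMH replicate 3 both passed, Eci1 with an adjusted p of 0.0480 and Decr1 with 0.0364. Of the 21 alternatives, however, Eci1 passed in 1 and Decr1 in 2. Their log2 fold changes went down to 0.12 (Eci1) and 0.07 (Decr1), and their limma adjusted p up to 0.333 and 0.498. The ratio of Eci2 to Eci1 was 0.186 ± 0.0108 in control and 0.1995 ± 0.0174 in PAMH hearts and did not differ past the threshold (mean ± SD of 5 samples; permutation test, exact p = 0.175, adjusted p = 0.218 over 5 ratios).

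Ehhadh, the peroxisomal bifunctional enzyme and a known PPAR alpha target, had a change of the other sign. It was at 2.33, 3.98, 2.06, 3.75 and 2.90 FPKM in control replicates 1 to 5 and at 2.21, 1.83, 1.59, 2.22 and 1.89 FPKM in PAMH replicates 1 to 5. Control replicates 2 and 4 were the highest, as for Ucp3, while controls 1 and 3 lay near the PAMH samples. Ehhadh did not pass in the deposited FPKM (log2 fold change -0.42, 95% interval -0.71 to -0.13, limma adjusted p = 0.0796), and was called lower under median ratio scaling (-0.49, adjusted p = 0.0477) and with the mitochondrial genes left out (-0.50, adjusted p = 0.0422).

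The thioesterases, which release fatty acids from CoA, and the enzymes of malonyl-CoA, the inhibitor of Cpt1, had no call. Acot1, the cytosolic form, had 3.27 ± 1.10 and 2.50 ± 0.707 FPKM (log2 fold change -0.27, 95% interval -0.66 to 0.12). Acot2, its mitochondrial relative, had 15.8 ± 2.40 and 14.1 ± 2.68 FPKM (-0.16, 95% interval -0.45 to 0.12), and the smaller thioesterase Acot13 had 184 ± 12.9 and 185 ± 7.47 FPKM. Acot1 and Acot2 lie beside each other on chromosome 12 and are near copies. Acot2 shares 24.6% of its 50-base words with Acot1, so their separate values are uncertain, and the ratio of Acot1 to Acot2 was 0.204 ± 0.0528 and 0.176 ± 0.0219 (exact permutation p = 0.341, adjusted p = 0.341 over 5 ratios). Acacb, which makes malonyl-CoA at the mitochondrial surface, had 25.1 ± 1.21 and 25.1 ± 4.28 FPKM, and Mlycd, which breaks it down, 26.2 ± 2.08 and 27.5 ± 4.75 FPKM (SD, n = 5 each). Their 95% intervals were -0.24 to 0.21 and -0.18 to 0.29 in log2 fold change.

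**Figure D3:**
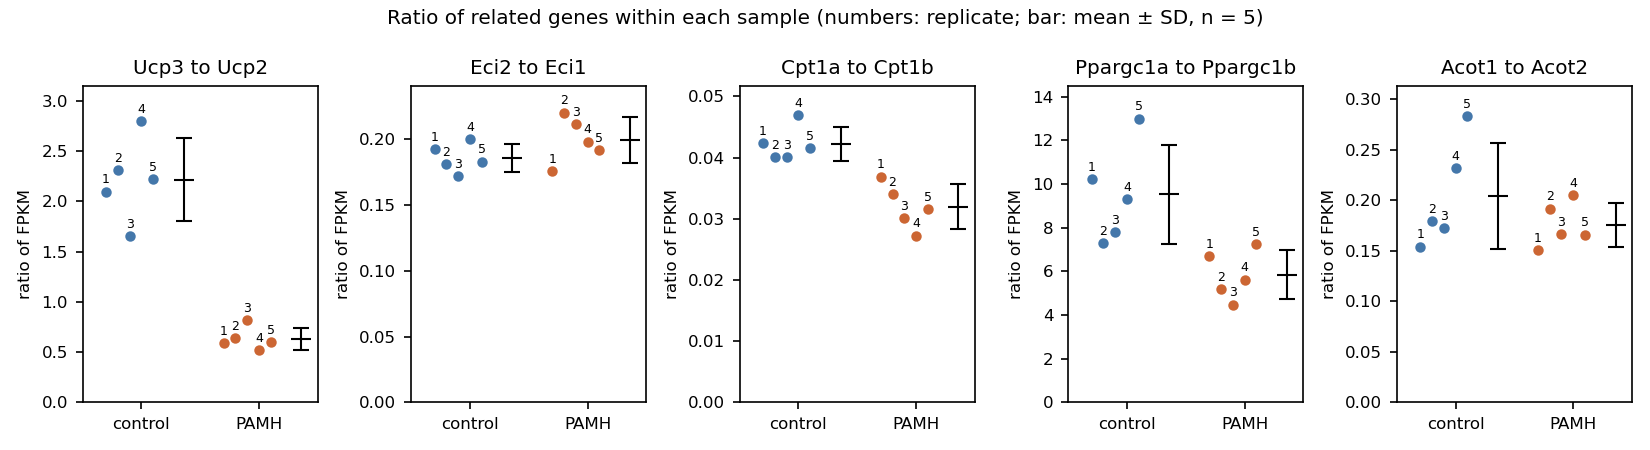
Ratio of the FPKM of 2 related genes within each sample, for 5 pairs. Numbered points are the 5 control (blue) and 5 PAMH (orange) replicates, bars are mean ± SD, and every axis starts at 0. The ratios Ucp3 to Ucp2, Cpt1a to Cpt1b and Ppargc1a to Ppargc1b are lower in all PAMH than in all control samples; the ratios Eci2 to Eci1 and Acot1 to Acot2 overlap.

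The 36 genes varied more among PAMH than among control samples. The SD of log2(FPKM + 1) was larger in the PAMH group for 31 of them (86.1%), with a median of 0.187 against 0.0915 in controls. The same held for 78.3% of all tested genes, with medians of 0.176 and 0.112. PAMH replicate 3 was the lowest of all 10 samples for 18 of the 36 genes (13% of all tested genes), and PAMH replicate 4 was the highest for 17 (30.8% of all tested genes). The FPKM of the 36 genes summed to between 2413 and 2598 in the controls, to 2373 in PAMH replicate 3 and to 3016 in PAMH replicate 4. PAMH replicate 3 also had the lowest sum of the 10 cardiomyocyte markers, 10331 FPKM, and PAMH replicate 4 the highest, 16710 FPKM. Whether cell makeup had a part in the spread of the 36 genes was not tested. Without PAMH replicate 3 the genes called higher were 5 of 36 (Acadvl, Decr1, Eci1, Eci2 and Esrra) and Ucp3 stayed the 1 called lower. Without PAMH replicates 3 and 4, 3 were higher and 1 lower. In both settings Esrra and Ucp3 passed.

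**Figure D4:**
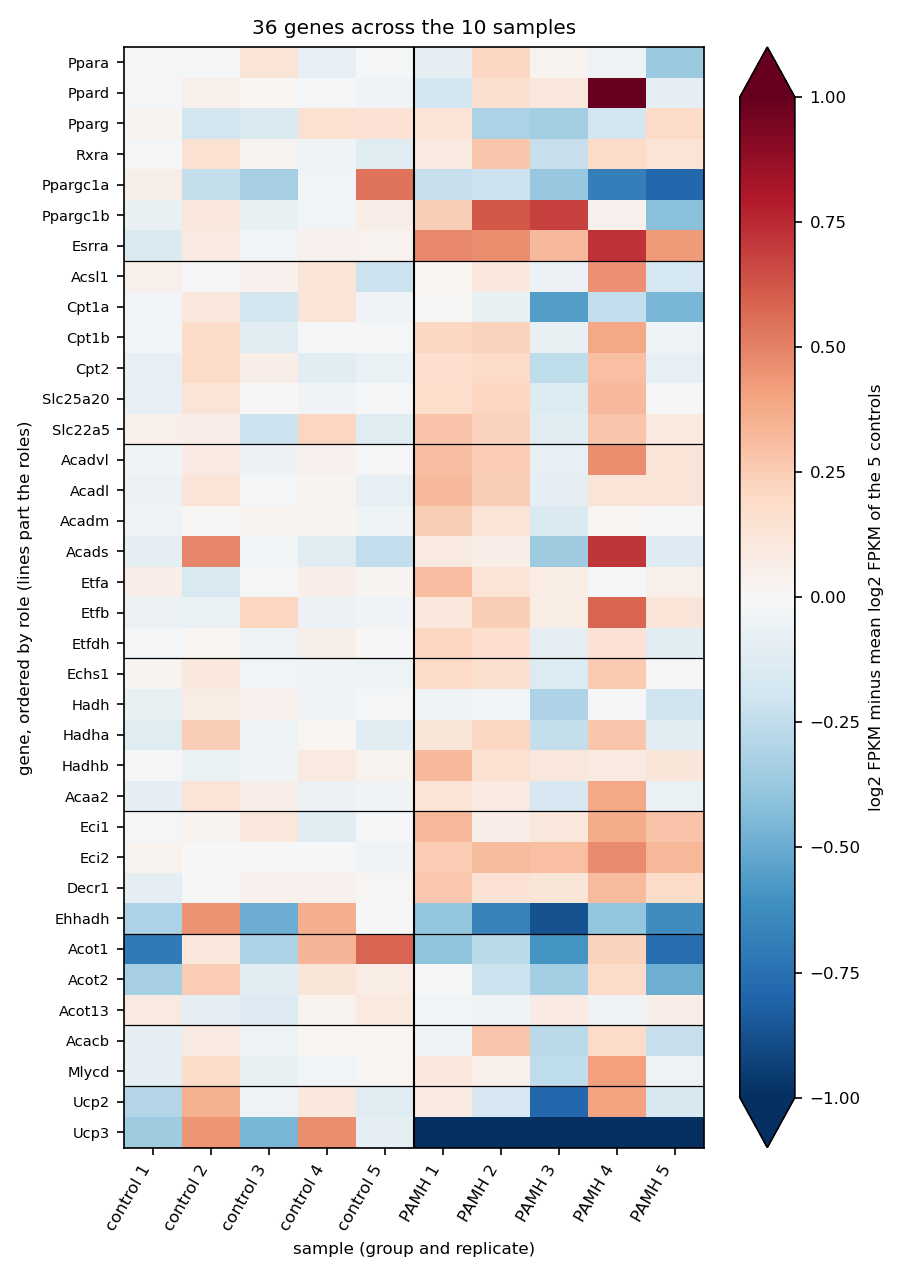
Values of the 36 genes in the 10 samples. Colour is log2 FPKM minus the mean log2 FPKM of the 5 controls (scale cut at -1 and 1), columns are samples, rows are genes ordered by role with lines between roles. The Ucp3 row is below -1 in every PAMH sample, the Esrra and Eci2 rows are positive in every PAMH sample, and the column of PAMH replicate 3 is bluer than that of replicate 4.

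Genes linked to PPARs outside the 36 were taken from lists of known targets and partners. Of 30 tested PPAR target genes (38 listed) 5 were higher, 6 were lower and 19 did not pass, with a median log2 fold change of 0.06 beside 0.07 over all tested genes. Among all tested genes the shares called were 4.95% higher and 1.24% lower. The list was chosen with earlier results of these data known, so these counts do not test PPAR targets as a group. Those lower were Pdk4, the kinase that restrains pyruvate dehydrogenase (log2 fold change -2.88), Angptl4, an inhibitor of lipoprotein lipase (-1.68), the lipoprotein receptor Vldlr (-0.51), the glycerol channel Aqp7 (-0.50), the lipid droplet protein Plin4 (-0.41) and the mitochondrial carrier Slc25a34 (-0.35). Among those higher were G0s2, an inhibitor of triglyceride lipolysis (1.06), Gpd1, a glycerol phosphate dehydrogenase (0.82), the lipid droplet protein Cidea (0.46) and the peroxisome division factor Pex11a (0.39). Limma adjusted p-values of the genes named here lay between 0.000115 (Pdk4) and 0.0435 (Slc25a34).

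Pdk4 had the largest change among the targets called lower on the scale of log2(FPKM + 1). That scale understates the change of Angptl4, at 3.81 ± 1.61 FPKM in controls and 0.482 ± 0.440 FPKM in PAMH samples (SD, n = 5 each). Among the alternatives its log2 fold change reached -2.92. Pdk4 was at 164, 241, 137, 323 and 174 FPKM in control replicates 1 to 5 and at 24.6, 29.6, 17.9, 40.4 and 22.5 FPKM in PAMH replicates 1 to 5. Controls 2 and 4 were the highest here too, and PAMH replicate 3 the lowest, as for Ucp3. Every PAMH sample lay below every control. The call of Slc25a34 ended without any 1 of 9 samples, that is, in each omission other than that of PAMH replicate 4, that of Pex11a without control replicate 3, 4 or 5 or PAMH replicate 1 or 2, and that of Plin4 without control replicate 1 or 5. Limma adjusted p reached 0.106, 0.0615 and 0.0530 in these omissions. The call of Pex11a also ended under median ratio scaling (adjusted p = 0.0585), with quantile normalization (0.0592) and with the mitochondrial genes left out (0.111), and that of Slc25a34 with equal sums per sample (0.0849). With no filter on low values the calls of Plin4 (0.0504), Slc25a34 (0.107), Pex11a (0.062), G0s2 (0.0553) and Aqp7 (0.057) ended.

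Of 27 tested PPAR partners and coregulators (30 listed) none passed in limma, with 4 at an unadjusted p under 0.05. The 3 with the smallest p were Klf15, a partner of PPAR alpha in heart, at 18.7 ± 1.76 and 15.1 ± 1.13 FPKM (adjusted p = 0.0528), Rxrg, an RXR of muscle, at 19.5 ± 1.27 and 24.4 ± 4.42 FPKM (adjusted p = 0.109), and the corepressor subunit Tbl1x at 4.16 ± 0.363 and 5.34 ± 0.943 FPKM (adjusted p = 0.118). Without PAMH replicate 3 Klf15 and Rxrg passed (adjusted p = 0.0480 and 0.0335), and without PAMH replicate 4 Klf15 and Tbl1x did (0.0386 and 0.0241). Klf15 also passed under median ratio scaling and quantile normalization (0.0174 and 0.0108). Of 24 tested further enzymes of mitochondrial fatty acid metabolism (32 listed) 1 was higher, Lipt1, a lipoyltransferase, from 2.05 ± 0.261 to 3.04 ± 0.288 FPKM (log2 fold change 0.41, adjusted p = 0.0144), and 23 did not pass. The call of Lipt1 ended with the mitochondrial genes left out (adjusted p = 0.0722). Of 18 tested genes of peroxisomal beta-oxidation (26 listed) Pex11a, which is also in the list of PPAR targets, was higher and 17 did not pass. The medians of the 3 lists were 0.03, 0.07 and 0.11, beside 0.07 over all tested genes, of which 6.19% were called.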

How the data were processed

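The 36 genes, the gene lists and the 5 ratios were chosen with earlier results of these data known. The authors deposited 1 table of FPKM for 10 samples. Per the submitters' processing notes, the study used HISAT2 2.2.1 and HTSeq 0.13.5 with the mouse build mm10, and the list of tools also holds Trimmomatic 0.38, FastQC 0.11.9, DESeq2 1.18.1 and R 3.4.1; no step is assigned to a tool. Which tool made the FPKM, with which annotation and strand setting, is not given in the sources used here. Columns were matched to samples by the labels' column names. GENCODE vM21 (GRCm38, which is mm10) named 55154 of 55335 identifiers.

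The 9439 genes whose mean reached 1 FPKM were tested as log2(FPKM + 1) with limma 3.58.1 in R 4.3.3 (group term, empirical Bayes with trend, 2-sided). P-values were adjusted by Benjamini-Hochberg over all of them, with a threshold of 0.05. Ratios were tested by exact 2-sided permutation over samples. The procedure was tested on simulated data. Named genes are all 36, with each sample's value for those called, those with an unadjusted p under 0.05 and a fixed panel; of every other list, the genes called or else the 3 with the smallest p. Pdk4 was shown by sample after its values were seen. 1 called gene of the PPAR target list is not reported here. Marker sums are sums of FPKM, and those without the called marker were added after seeing the data. Near copies were sought as shared 50-base words between GENCODE transcripts. Alternatives were a pseudocount of 0.1, other filters, scalings, sample weights, robust empirical Bayes, a replicate block and omission of each sample. Omission of PAMH replicates 3 and 4, and rescaling without mitochondrial genes, were chosen after seeing the data. Same-numbered samples did not deviate together (correlations over genes from -0.195 to 0.160), so replicate numbers were not taken as pairs. Figures were drawn with matplotlib 3.10.9.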

Additional observations from a re-analysis of the deposited data

Results flagged for a closer look

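In 5 of 82 sets of 5 samples 1 value stood apart from the other 4 by more than Dixon's 95% limit for 5 samples (a gap of 0.71 of the range). Chance alone flags about 1 in 20. Ppard was 2.81 FPKM in PAMH replicate 4 while the rest of its group lay at 1.21 to 1.55 FPKM. Hadhb was 134 FPKM in PAMH replicate 1 against 114 to 119.6 FPKM in the others of its group. Among controls, Cpt1b was 105.5 FPKM in replicate 2 against 86.0 to 91.6 FPKM, and Acads was 67.6 FPKM in the same replicate against 40.6 to 47.4 FPKM. Etfb was 307 FPKM in control replicate 3 against 253 to 258 FPKM in the other controls.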

How the results depend on the processing

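Esrra and Ucp3 passed in all 21 alternatives (limma adjusted p from 0.00193 to 0.0315 and from 0.000215 to 0.00703), and Eci2 in 17 of 21. Where a call or sign changed, the cause was not tested. Over all genes 467 were higher and 117 lower; the counts were 196 and 68 with no filter on low values, 218 and 212 under median ratio scaling, 234 and 246 with quantile normalization, 1038 and 176 with sample weights, and 216 and 202 without mitochondrial genes. With a filter at 5 FPKM 75 were lower, and without PAMH replicates 3 and 4 993 were higher. Leaving out each sample gave 202 to 979 higher and 66 to 147 lower, the 979 without PAMH replicate 3. Of the 36 genes, 1 was higher and 2 lower under median ratio scaling and with quantile normalization, and 1 and 3 without mitochondrial genes; leaving out each sample gave 2 to 5 higher and 1 lower. In the outside lists 3 were lower with no filter, 13 higher with sample weights and 14 higher without PAMH replicates 3 and 4, and leaving out each sample gave 5 to 12 higher and 4 to 7 lower. With the replicate number as a block, 175 and 64 of all genes, 1 and 1 of the 36, and 3 and 3 of the outside lists were called. The block ended the calls of Eci2 (adjusted p = 0.0617), Plin4 (0.0516), Slc25a34 (0.0656), Pex11a (0.0628), Cidea (0.0516), Aqp7 (0.0716) and Lipt1 (0.0639). The log2 ratio differences were -1.80 (Ucp3 to Ucp2), -0.40 (Cpt1a to Cpt1b) and -0.69 (Ppargc1a to Ppargc1b), with an adjusted exact p of 0.104 each, which 5 pairs cannot bring lower than 0.0625 before adjustment.

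Signs turned for genes that were never called. Under median ratio scaling the log2 fold changes were -0.0055 (Rxra), -0.027 (Acsl1), -0.033 (Cpt2), -0.048 (Acadm), -0.021 (Acads), -0.032 (Etfdh), -0.0052 (Echs1), -0.045 (Hadha), -0.022 (Acaa2), -0.089 (Acot13) and -0.043 (Mlycd). With quantile normalization they were -0.039 (Rxra), -0.070 (Acsl1), -0.077 (Cpt2), -0.018 (Slc25a20), -0.061 (Acadm), -0.067 (Acads), -0.0030 (Etfa), -0.071 (Etfdh), -0.030 (Echs1), -0.060 (Hadha), -0.040 (Acaa2), -0.092 (Acot13) and -0.078 (Mlycd). Without mitochondrial genes they were -0.020 (Rxra), -0.043 (Acsl1), -0.049 (Cpt2), -0.0023 (Slc25a20), -0.064 (Acadm), -0.037 (Acads), -0.0035 (Etfa), -0.047 (Etfdh), -0.021 (Echs1), -0.060 (Hadha), -0.038 (Acaa2), -0.10 (Acot13) and -0.058 (Mlycd). Sample weights gave -0.013 (Acot13) and 0.012 (Acacb), and equal sums 0.033 (Acacb). Without PAMH replicates 3 and 4 the values were -0.022 (Ppard), 0.0057 (Pparg), -0.015 (Acsl1) and 0.00055 (Acacb). Leaving out each sample gave ranges of -0.11 to 0.021 (Ppara), -5.9e-05 to 0.20 (Ppard), -0.026 to 0.13 (Acsl1), -0.081 to 0.20 (Acads), -0.0032 to 0.12 (Hadha), -0.00064 to 0.14 (Acaa2), -0.022 to 0.033 (Acot13), -0.083 to 0.047 (Acacb), -0.034 to 0.13 (Mlycd) and -0.21 to 0.036 (Ucp2).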
